A study of Mus musculus with 9 samples.

Results

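The neurexophilins and neurexins were followed here as 6 genes, *Nxph1*, *Nxph2*, *Nxph3*, *Nxph4*, *Nrxn2* and *Nrxn3*, of the 21457 features measured in cholinergic nuclei of the adult mouse spinal cord. They were taken by name, and they had been selected on their levels over cell types in these same nuclei, so those levels are given as a description without a test. Nuclei came from 8-week-old mice that carried *Chat*-IRES-Cre and the Cre-dependent nuclear tag Sun1-sfGFP, each as 1 copy over wild type, and every library shared this genotype. The tag marks any cell in which the *Chat* promoter has driven Cre, also in the past, and nuclei positive for GFP and for the DNA dye DRAQ5 were sorted. Cords of 4 mice were pooled, and each of 3 pools (replicate 1 of both sexes, replicate 2 of males, replicate 3 of females) was cut into a cervical, a thoracic and a lumbar/sacral piece, so that there were 9 libraries with 3 per region. The authors assigned 16042 nuclei to 21 clusters, S1 to S3 of skeletal motor neurons (MNs; 5054 nuclei), V1 to V10 of visceral MNs (5613) and I1 to I8 of cholinergic interneurons (5375).

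Neurexins are presynaptic adhesion proteins with a single membrane span. They bind partners on the postsynaptic membrane, such as neuroligins, LRRTMs and, through cerebellins, delta-type glutamate receptors, and so help to organize the synapse. Neurexophilins are secreted, glycosylated proteins that bind tightly to alpha-neurexins, the long form. Skeletal MNs drive muscle, visceral MNs drive autonomic ganglia, and cholinergic interneurons modulate local circuits.

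The level of a gene is its share of the corrected counts summed over the nuclei of 1 library and 1 class or cluster, per 1000000 counts (CPM), given as the mean ± SD over libraries with at least 10 nuclei. The authors had corrected the values for depth, and reads in introns were counted, so levels are compared between cell types for 1 gene and never between genes. Library medians were 4712 to 16127 corrected counts per nucleus, and 24 barcodes were shared between libraries. Class markers followed the labels, with *Tns1* at 381 ± 61.3 CPM in skeletal MNs (31.3 in visceral MNs, 5.90 in interneurons), *Fbn2* at 634 ± 330.2 in visceral MNs (21.8 and 10.1 in the others) and *Mpped2* at 256 ± 28.0 in interneurons (20.8 and 7.67). Exceptions were V8 with little *Zeb2* (7.79 CPM, 387 in the class) and I8 with little *Pax2* (9.55, 211 in the class). *Fbn2* was also less frequent in V6 and V9, in 32.6% and 51.3% of nuclei without *Nxph2*, beside 83.2% of such visceral nuclei. The library labelled cervical replicate 2 held the *Hoxc5* level of thoracic skeletal MNs (82.5 CPM, with 94.5 and 101 in thoracic replicates 3 and 1), and the library labelled thoracic replicate 2 held that of cervical ones (9.44, with 16.1 and 15.6 in cervical replicates 1 and 3). Labels were kept, and the differences named between regions are given with and without both libraries. The libraries also fell into 2 sets by the share of counts from genes over 100 kb, 60.3 to 64.0% in 4 libraries (cervical replicates 1 and 3, thoracic replicate 1, lumbar/sacral replicate 1) and 47.6 to 52.4% in the other 5. The summed level of 3 microglial markers was 6.28 to 11.6 CPM in the long-gene-rich set and 35.7 to 96.8 in the other.

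*Nxph2*, which encodes a secreted neurexin ligand, lies on the plus strand at chr2:23321246-23401973 (GRCm38), and *Nxph1*, which encodes another, on the plus strand at chr6:8948431-9249032. RefSeq start-site windows (GRCm38.p6) were found for 3 of the 6 genes, *Nxph1*, *Nxph2* and *Nrxn3*. The 250 bases before the RefSeq start of *Nxph2* (chr2:23320996-23321245) and of *Nxph1* (chr6:8949769-8950018, within the gene interval above, since this RefSeq start lies 1588 bases past the start of the gene in GENCODE) are printed 5′ to 3′ on the plus strand, to set the start region of a gene limited to some interneuron clusters beside that of a gene found in most clusters. Capitals mark matches to the GC box GGGCGG and to the CCAAT box, read on either strand.
Nxph2: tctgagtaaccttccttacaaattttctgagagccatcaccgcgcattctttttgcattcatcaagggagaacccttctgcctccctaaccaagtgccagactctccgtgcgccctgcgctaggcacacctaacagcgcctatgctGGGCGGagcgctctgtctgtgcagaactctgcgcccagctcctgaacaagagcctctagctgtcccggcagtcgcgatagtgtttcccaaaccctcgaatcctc
Nxph1: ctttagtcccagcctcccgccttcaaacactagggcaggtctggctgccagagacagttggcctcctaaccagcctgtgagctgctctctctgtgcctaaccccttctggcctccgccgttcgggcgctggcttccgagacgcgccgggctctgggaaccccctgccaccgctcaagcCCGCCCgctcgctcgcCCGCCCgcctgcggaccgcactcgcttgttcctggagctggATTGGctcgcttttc
The *Nxph2* window held 1 GC box, and that of *Nxph1* held 2 GC boxes and 1 CCAAT box. Of the same windows of 32851 starts, 32.7% held the GC box and 33.8% the CCAAT box on either strand. Neither window held TATAAA, found in 12.4% of all windows on either strand, and neither held TAATTA (4.84%), CAGCTG (13.0%) or TGACGTCA (1.55%). The GC content was 55.6% for *Nxph2* and 66.8% for *Nxph1*, with a median of 52.4% over all windows. The 3 windows of *Nrxn3* held none of these 6 motifs.

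*Nxph2* was high in the interneuron class and low in MNs. Over the 9 libraries its lowest, median and highest levels were 124, 173 and 218 CPM in interneurons, 0.528, 2.54 and 8.58 in skeletal MNs, and 0.607, 1.96 and 5.02 in visceral MNs. The 9 interneuron values all lay above the 18 values of MNs, and the interneuron mean was 47.9 times that of skeletal MNs and 59.7 times that of visceral MNs. Such a gap in the upward direction was present for 2.22% of 11292 genes, and it is no test, since the classes were drawn from the same nuclei. At least 1 corrected count was found in 51.4% of interneuron nuclei, 2.67% of skeletal MNs and 1.85% of visceral MNs, at median totals of 6986, 7393 and 7519 counts. Over MN clusters this share ran from 0.755% in V4 to 5.21% in S2, and no separate background was measured.

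The level of *Nxph2* was not shared by all interneuron clusters. It was 296 ± 73.7 CPM in I4, 271 ± 52.5 in I2, 201 ± 58.1 in I1, 173 ± 96.6 in I8, 164 ± 43.0 in I3 and 101 ± 48.6 in I7. In these 6 clusters the mean ± SD of each overlapped that of the next in order. In the other 2 interneuron clusters *Nxph2* was at 13.4 ± 7.72 CPM in I6 and 2.15 ± 2.83 in I5, the latter within the range of the MN cluster means (1.21 to 7.22). Over all 21 clusters in order of *Nxph2*, the step from I7 down to I6 was the only 1 of 20 neighbouring pairs whose mean ± SD did not overlap. By nuclei, *Nxph2* was found in 77.1 ± 10.2% of I2, 75.6 ± 13.9% of I4, 67.0 ± 21.9% of I8, 65.5 ± 8.87% of I1, 61.1 ± 13.5% of I3 and 40.4 ± 8.49% of I7, beside 7.94 ± 2.73% of I6 and 1.35 ± 1.35% of I5 (mean ± SD over libraries). With every nucleus thinned to 4600 counts, which leaves out 8.63% of nuclei (44.1% of lumbar/sacral replicate 1), these means were 61.7%, 64.6%, 48.7%, 54.6%, 48.5% and 28.0%, beside 5.96% and 0.936%, so that the 6 clusters stayed above the other 2.

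**Figure D1:**
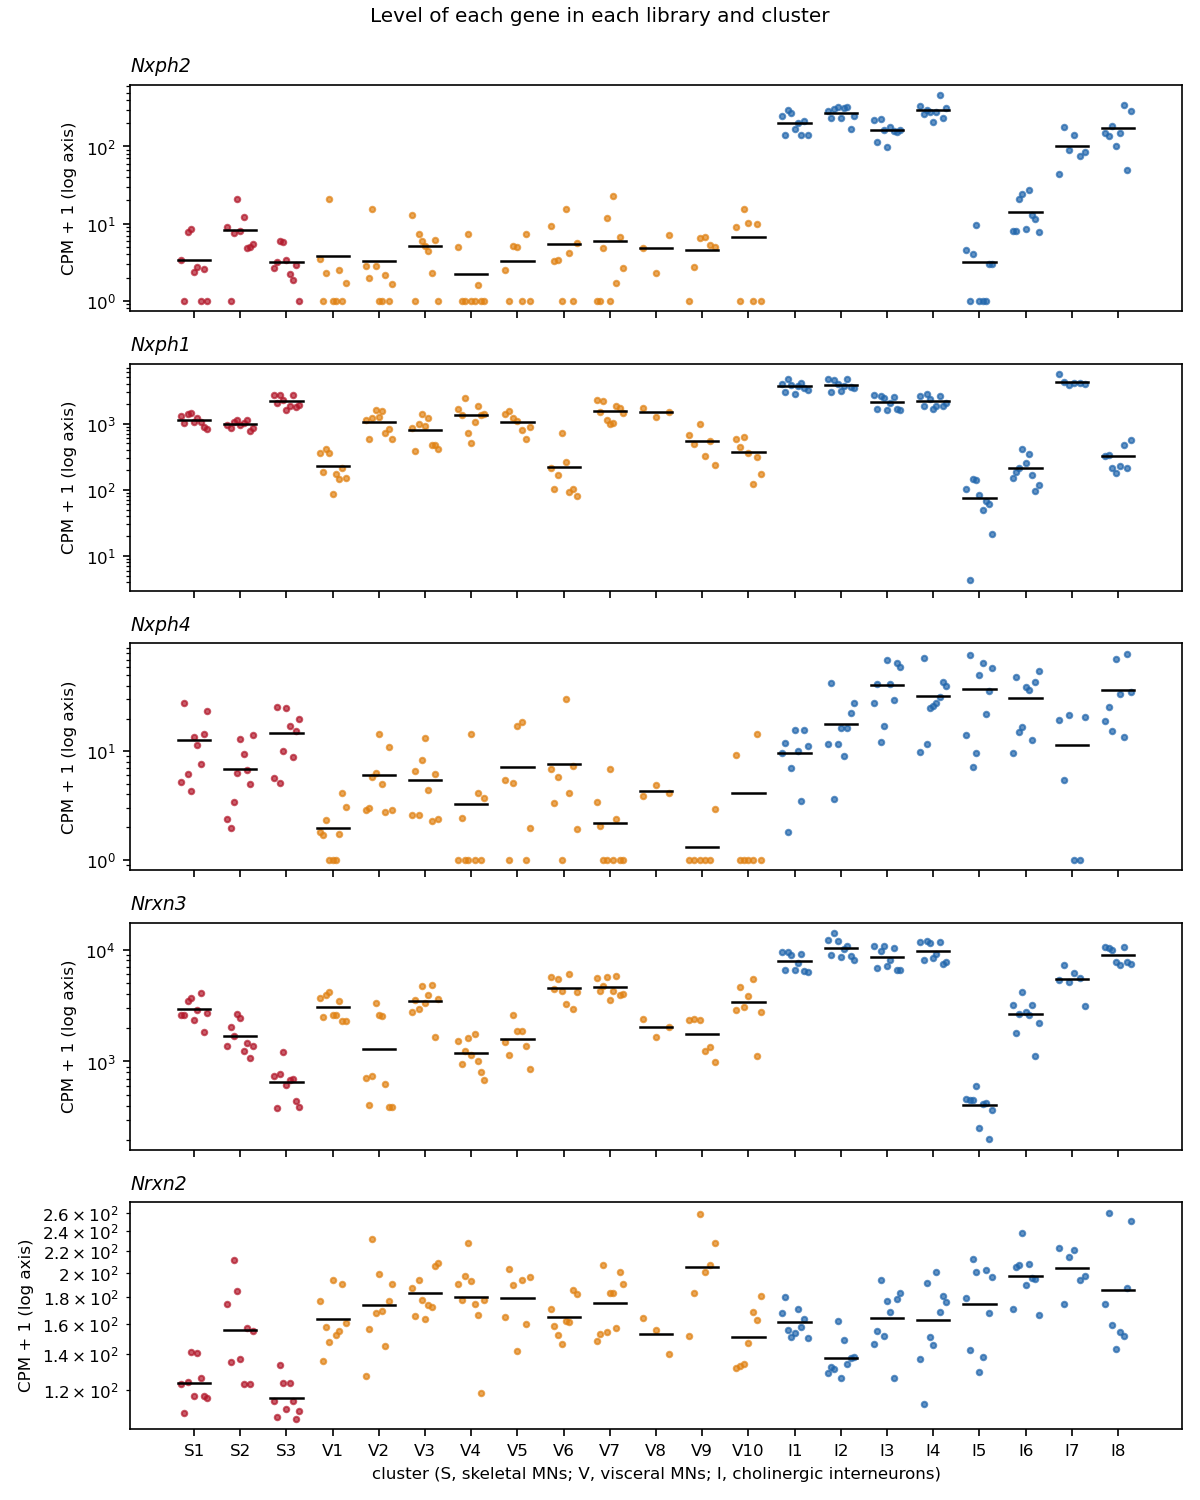
Levels of 5 genes (CPM plus 1, log axes that differ between panels) in each cluster; each point is 1 library with at least 10 nuclei of that cluster and each bar is the mean. *Nxph2* lies between 43.2 and 466 CPM in I1 to I4, I7 and I8 and at most at 26.2 in I5 and I6, the means of *Nxph1* and *Nrxn3* are lowest in I5, and *Nrxn2* stays within 105 to 259 CPM.

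The few MN nuclei with *Nxph2* also held the markers of their class. Of 135 skeletal MN nuclei with a count, 94.8% held *Tns1*, as did 91.3% of the 4919 without. *Pax2*, an interneuron transcription factor gene, was found in 9.63% of the former and 3.68% of the latter. Of 104 visceral MN nuclei with *Nxph2*, 75% held *Fbn2* and 2.88% held *Pax2*, beside 83.2% and 2.23% of the 5509 without. Doublets were not called, and their part in these nuclei was not tested. Among interneurons, *Nxph1* was found in 96.8% of the 2764 nuclei with *Nxph2* and in 73.2% of the 2611 without. Within clusters the shares were closer. They were both 100% in I1, I2 and I7, 100% and 99.7% in I3, 100% and 95.9% in I4, 64.1% and 62.6% in I8, and 63.4% and 55.7% in I6, with only 10 nuclei of I5 holding *Nxph2* (70% and 27.0%). *Chat* itself was found in 53.4% of interneuron nuclei with *Nxph2* and 62.4% of those without. By cluster these shares were 60.3% and 59.7% in I1, 32.9% and 22.4% in I2, 62.5% and 52.1% in I3, and 59.9% and 42.2% in I4. They were 90% and 90.6% in I5, 73.2% and 76.7% in I6, 20.6% and 14.4% in I7, and 49.0% and 53.4% in I8.

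*Nxph1* was present in all 3 classes. Over the 9 libraries its lowest, median and highest levels were 1766, 2310.4 and 2868 CPM in interneurons, 1319.8, 1397 and 1854 in skeletal MNs, and 609, 928 and 1371 in visceral MNs. The interneuron and skeletal ranges overlapped over the 9 libraries, as did the skeletal and visceral ranges, but in 9 of 9 libraries the order was interneurons, skeletal MNs, visceral MNs. The share of all genes with a constant order is not given here. *Nxph1* also moved with the 2 sets of libraries. In the 4 long-gene-rich libraries the class ranges were 2379 to 2868 CPM in interneurons, 1635 to 1854 in skeletal MNs and 858 to 1371 in visceral MNs, and in the other 5 they were 1766 to 2310.4, 1319.8 to 1397 and 609 to 1142. Between clusters the spread was wider, at 5.77 log2 units from the lowest to the highest mean, and 99% of 12131 genes had a smaller one. I7 (4305 ± 615 CPM), I2 (3839.5 ± 651) and I1 (3639.7 ± 578) formed a top group that stood clear of the next cluster within the SD, S3 of skeletal MNs (2179 ± 432). I4 (2159.7 ± 403) and I3 (2079.7 ± 461) lay beside S3. At the foot of the order were V1 (230.5 ± 115), V6 (219 ± 216), I6 (214 ± 106) and I5 (74.0 ± 48.3), and I7 had 58.2 times the mean of I5.

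In I8 the 2 neurexophilins parted. *Nxph1* there was 318 ± 140.3 CPM, below I1 to I4, while *Nxph2* stood between I1 and I3. I8 also held the glycine transporter gene *Slc6a5* at 874 ± 174 CPM, while no other cluster exceeded 122. The vesicular GABA and glycine transporter gene *Slc32a1* was at 32.1 CPM in I8 and 28.4 to 54.0 in I1 to I4, and at 4.66 and 4.14 in I5 and I6, which were low in both neurexophilins. Over the 21 cluster means *Slc32a1* was the gene most like *Nxph2* (Pearson r = 0.95 of log2 of CPM plus 5), followed by *Hoxb7* (0.93), *2010300F17Rik* (0.91), *Mab21l2* (0.91) and *Neurod2* (0.91). These correlations are descriptive, since the cluster means share the same 9 libraries.

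Among skeletal MNs *Nxph1* was highest in S3, which the authors assigned to gamma MNs. Its lowest, median and highest levels were 1612, 2043 and 2721 CPM in S3, 769.6, 940.4 and 1146 in S2 (alpha MNs) and 838, 1071 and 1459 in S1 (Type 3). All 9 values of S3 lay above the 18 of S1 and S2, a pattern held by 1.66% of 11465 genes. Visceral clusters spread from V7 (1562 ± 484) and V8 (1488 ± 224), a cluster of lumbar/sacral libraries, down to V1 and V6. *Nxph1* was detected in 99.8 ± 0.263% of S3 nuclei, 59.8 ± 17.0% of V1, 50.3 ± 19.2% of V6 and 25.9 ± 12.7% of I5. No gene was as like *Nxph1* as the nearest was to *Nxph2*, with *Gtf2f2* at r = 0.80, *Ipcef1* at 0.76, and *Irx5*, *Spock3* and *Irx2* at 0.74. *Nxph1* and *Nxph2* themselves had r = 0.47 over the 21 means.

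**Figure D2:**
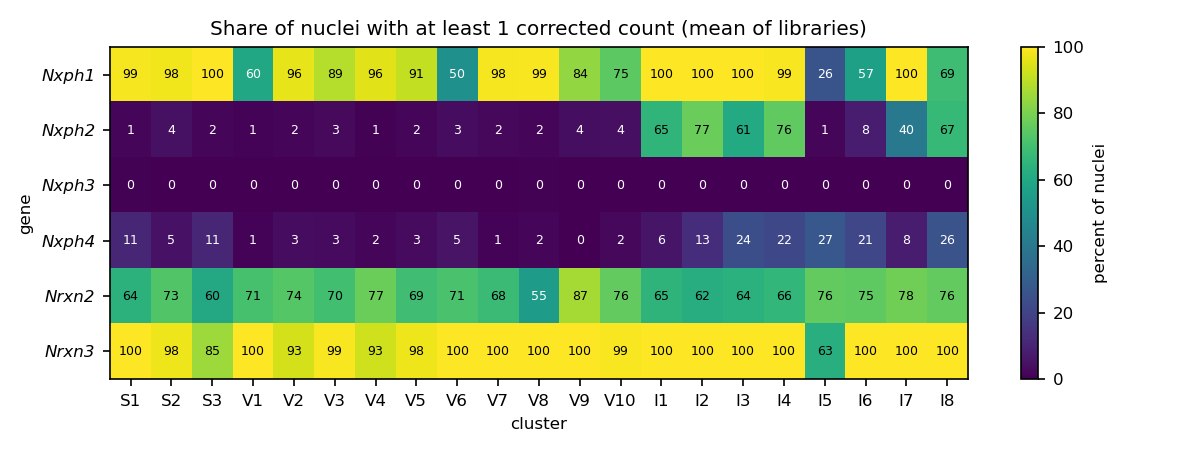
Percent of nuclei in which each gene (rows) had a corrected count, by cluster (columns), as the mean over libraries; colour and printed number give the same value. *Nrxn2* and *Nrxn3* exceed 50% in all 21 clusters, *Nxph1* in 20, *Nxph2* in 5, and *Nxph3* and *Nxph4* in 0.

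*Nxph4* (chr10:127525473-127534559, minus strand) was low but had a cluster pattern of its own. Its class levels were 24.6 ± 13.5 CPM in interneurons, 11.1 ± 6.27 in skeletal MNs and 3.47 ± 2.84 in visceral MNs. It was highest in I3 (39.5 ± 20.8), I5 (36.6 ± 25.9), I8 (35.6 ± 25.0), I4 (31.1 ± 18.8) and I6 (29.7 ± 17.2), and lower in I2 (16.9 ± 11.6), I7 (10.5 ± 10.1) and I1 (8.61 ± 4.86). I5 and I6, at the foot of the interneurons for *Nxph1* and *Nxph2*, were thus among the 5 highest clusters for *Nxph4*. *Nxph4* moved with the 2 sets of libraries. Interneurons held it at 6.63 to 15.0 CPM in the 4 long-gene-rich libraries and at 24.8 to 45.4 in the other 5, and skeletal MNs at 3.18 to 6.79 and 12.1 to 19.5. The genes most like it over clusters were *Higd1a* (r = 0.91), *Ltk* (0.89), *Mpped2*, *Kctd8* and *Cdc14b* (0.86 each).

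*Nxph3* (chr11:95509845-95514570, minus strand) was near 0, with 24 corrected counts in 24 nuclei of 16042. Its highest cluster mean was 0.839 ± 0.782 CPM in V8. It had 0 counts in 8 clusters, and 0 of the 1285 nuclei of S2 allows a share of up to 0.233% of nuclei with a count, by counting error only. This limits detection, since a nucleus that expresses the gene can yield no count. No difference between cell types was detectable for *Nxph3* at this depth. It did not pass the filter on low values, and in fits without that filter (9 over the classes and 12 within clusters) 0 differences of *Nxph3* passed by limma and 0 had an unadjusted p under 0.05 (lowest limma adjusted p = 0.66).

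Counted per nucleus, 48.6% of interneurons held 2 neurexophilin genes and 6.12% held 3, while 89.4% of skeletal MN and 81.0% of visceral MN nuclei held exactly 1. In I2, 69.7% of 780 nuclei held 2 genes. In I5, 54.8% of 584 nuclei held none, the highest value of the 21 clusters, followed by V6 with 50.9% of 582.

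**Figure D3:**
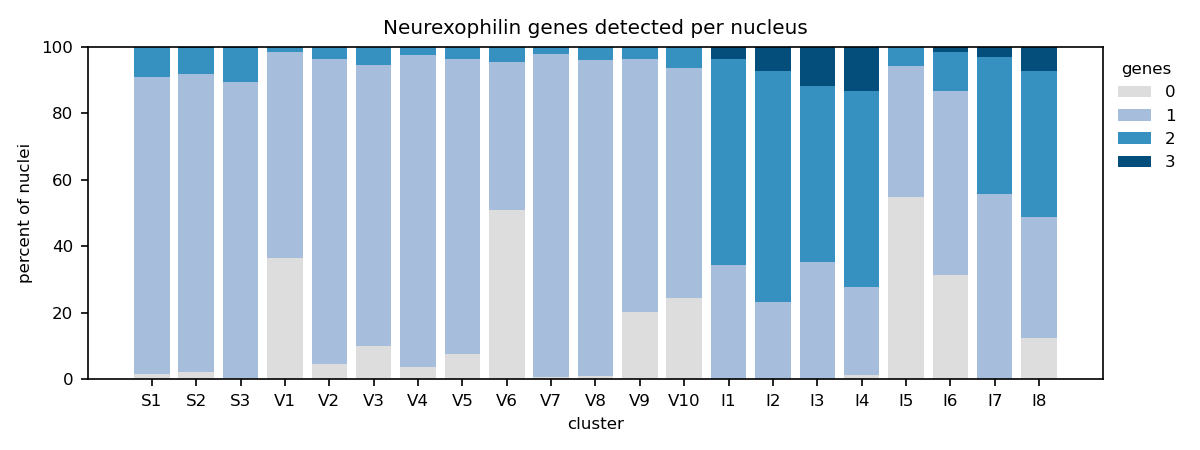
Stacked bars give the percent of nuclei of each cluster with counts of 0, 1, 2 or 3 of the neurexophilin genes, all libraries pooled. Nuclei with 2 genes make up 62.1% of I1 and 69.7% of I2, while 54.8% of I5 and 50.9% of V6 hold none.

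*Nrxn3* (chr12:88722876-90334935, plus strand), a neurexin gene of 1612 kb and the longest of the 6, was also richest in interneurons. Over the 9 libraries its lowest, median and highest levels were 5114, 7114 and 9208 CPM in interneurons, 1542, 2698 and 3167 in visceral MNs, and 1058, 1470.3 and 2279 in skeletal MNs. All interneuron values lay above all MN values, so *Nxph2* and *Nrxn3* were the 2 members with this gap. I2 was highest (10396 ± 2035), followed by I4 (9777 ± 1923), I8 (8974 ± 1514), I3 (8539.9 ± 1843), I1 (7875 ± 1463) and I7 (5422 ± 1368). I6 held 2633 ± 877 and I5 404 ± 120.1, the lowest of the 21 clusters, and I2 had 25.7 times the mean of I5. Every library of I5 and I6 lay below every library of I1 to I4 for *Nrxn3*, *Nxph1* and *Nxph2*, a gap that 0.39% of 12301 genes had in this direction. Neighbours in the order of *Nrxn3* overlapped within their SD in 20 of 20 pairs. The 5 genes most like *Nrxn3* over clusters were *Adarb2* (r = 0.80), *Nxph2* (0.80), *Ttyh1* (0.79), *Plcxd3* (0.77) and *Sept3* (0.76).

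In skeletal MNs *Nrxn3* was lowest where *Nxph1* was highest. S1 held 2923 ± 711 CPM, S2 1704 ± 552 and S3 659.7 ± 258, so that S1 had 4.43 times the level of S3. The library ranges were 1840 to 4123 in S1, 1070 to 2655 in S2 and 379 to 1216 in S3, and that of S2 overlapped both others. In visceral MNs, V7 (4638 ± 843) and V6 (4545 ± 1116) were highest, and V4 (1197 ± 380.2) and V2 (1304 ± 1173) lowest. V6 was thus second among visceral clusters for *Nrxn3* and last for *Nxph1*. *Nrxn3* was higher in the 4 long-gene-rich libraries, at 8046 to 9208 CPM in interneurons, with 5114 to 7114 in the other 5.

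*Nrxn2* (chr19:6418731-6544169, plus strand) was the flattest of the 5 detected members. Its cluster means ran from 115 ± 9.34 CPM in S3 to 204 ± 36.8 in V9, a range of 0.80 log2 units, and 25.6% of all genes had a smaller one. Its class levels were 164 ± 8.24 in interneurons, 172 ± 11.1 in visceral MNs and 128 ± 14.3 in skeletal MNs. The genes most like it were *Lrfn1* (r = 0.83), *Jag2* (0.83), *Tmem17* (0.82), *Tctex1d2* (0.81) and *Fabp5* (0.81), and the nearest of the pathway was *Nlgn2*, a neuroligin gene, at 0.75.

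Region was compared across libraries, lumbar/sacral (3) with cervical and thoracic (6, rostral), by limma on log2 of CPM plus 5. In these sums, fewer nuclei of a type within a class and less RNA per nucleus cannot be told apart. None of the members passed an adjusted p of 0.05 in any class. It was 0 of 4 tested members in skeletal MNs, where 0.01% of 9999 genes passed (402 at an unadjusted p under 0.05), 0 of 3 in visceral MNs, where 4.27% of 10031 passed, and 0 of 5 in interneurons, where 0.051% of 9805 passed (331 unadjusted). The nearest to passing was *Nxph1* in visceral MNs. Its levels in replicates 1 to 3 were 1371, 956 and 1142 CPM in lumbar/sacral, 928, 609 and 1084 in cervical and 858, 679 and 633 in thoracic libraries. The lumbar/sacral values lay above the thoracic ones and overlapped the cervical ones. The difference was 0.55 on the log2 scale (SE 0.20, 95% interval 0.09 to 1.01, limma adjusted p = 0.25). It was 0.41 without the 2 libraries whose *Hox* levels go against their labels (limma adjusted p = 0.33), and with a term for the 2 library sets, added after seeing the data, it was 0.63 and passed (limma adjusted p = 0.0046). Equal weight was also given to the visceral clusters with at least 10 nuclei in every library, V1 to V4 and V7. This leaves out V5, V6 and V8 to V10. The difference was then -0.13 (limma adjusted p = 0.98). V8, where *Nxph1* is at 1488 CPM, made up 30.5 ± 4.14% of lumbar/sacral visceral nuclei and at most 0.279% in any other library. Its part in the difference was not tested. The lumbar/sacral difference of *Nxph1* was larger in visceral MNs than in skeletal MNs by 0.56 (limma adjusted p = 0.0056, 7.34% of genes called) and than in interneurons by 0.49 (limma adjusted p = 6.12e-04, 10.4% called), while interneurons and skeletal MNs differed by 0.08 (limma adjusted p = 0.79, 0.62% called). Without the 2 libraries whose *Hox* levels go against their labels, these were 0.53, 0.47 and 0.06 (limma adjusted p = 0.0029, 4.47e-05 and 0.88).

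**Figure D4:**
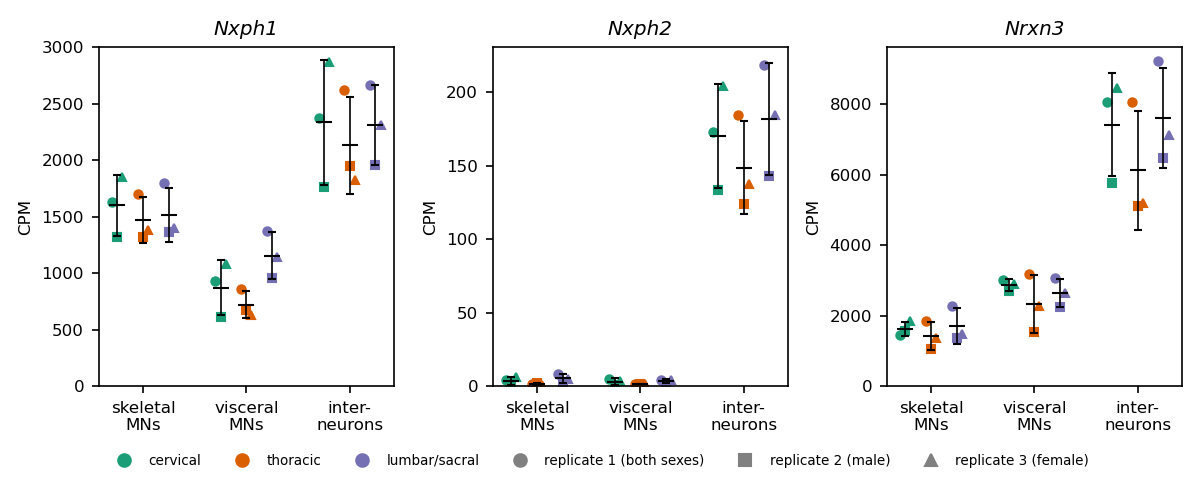
Levels of *Nxph1*, *Nxph2* and *Nrxn3* (CPM, linear axes from 0) by class; each point is 1 library, colour gives the region and shape the replicate, and bars are the mean and SD of 3 libraries. Interneuron levels of *Nxph2* (124 to 218) are above those of MNs (at most 8.58) in every library, and lumbar/sacral *Nxph1* in visceral MNs (956 to 1371) lies above thoracic values (633 to 858).

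For *Nxph2* in interneurons, levels in replicates 1 to 3 were 173, 133 and 204 CPM in cervical, 184, 124 and 138 in thoracic and 218, 143 and 184 in lumbar/sacral libraries. The 3 regions overlapped, with a lumbar/sacral difference of 0.19 (95% interval -0.23 to 0.60, limma adjusted p = 0.9997). *Nrxn3* in interneurons held 8046, 5757 and 8453 CPM in cervical, 8056, 5114 and 5183 in thoracic and 9208, 6482 and 7114 in lumbar/sacral libraries, which overlapped too (0.18, 95% interval -0.34 to 0.71, limma adjusted p = 0.9997). Without the 2 libraries whose *Hox* levels go against their labels these differences were 0.05 and 0.04 (limma adjusted p = 0.95 and 0.97). Between cervical and thoracic libraries 0 members passed, in a comparison where 0% of genes passed in any class by limma and 607, 160 and 189 genes of skeletal MNs, visceral MNs and interneurons had an unadjusted p under 0.05. Without the same 2 libraries, which leaves 2 per region, 0 members passed there either, with differences from -1.02 (*Nxph4* in interneurons) to 0.44 (*Nxph1* in visceral MNs).

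The male and the female pool were compared over the 3 regions. *Nxph2* in interneurons was lower in the male library of each region, with means of 133 and 175 CPM. The difference was -0.37 (SE 0.12, 95% interval -0.65 to -0.08), which did not pass the correction (limma adjusted p = 0.15), and 0.449% of genes were called. *Nxph4* in interneurons was 0.78 higher in the male pool (95% interval -0.11 to 1.66, limma adjusted p = 0.27). In skeletal MNs 0 of 4 members passed (0.09% called) and in visceral MNs 0 of 3 (0.479% called). There is 1 pool per sex, so that sex and pool cannot be told apart, and the SE and interval hold no spread between pools of 1 sex. The cervical pair sets a library of the long-gene-poor set (male) beside one of the long-gene-rich set (female). *Nxph2* in interneurons was at 173 to 218 CPM in the 4 long-gene-rich libraries and at 124 to 184 in the other 5. Those 5 are every male library and thoracic and lumbar/sacral replicate 3.

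Within clusters, lumbar/sacral and rostral libraries could be compared in 17 of 21, in 66 tests of a member in a cluster, of which 4 passed. The share of all genes that passed was 8.89% in V6, 3.07% in V2, 2.74% in V4, 1.55% in V3, 1.38% in V5, 0.845% in I6, 0.511% in I2, 0.0869% in I8, 0.0783% in V7, 0.0711% in S3, 0.0408% in I4, 0.0286% in I5 and 0% in S1, S2, V1, I1 and I3. *Nrxn3* in V2 had the lowest adjusted p. Its levels in replicates 1 to 3 were 3354, 2597 and 2536 CPM in lumbar/sacral, 707, 404 and 735 in cervical, and 625, 387 and 392 in thoracic libraries. Every lumbar/sacral value lay above every rostral one, also within each of the 2 library sets, and the share of all genes with such a gap is not given here. The difference was 2.42 (SE 0.24, limma adjusted p = 1.16e-04), 2.22 without the 2 libraries whose *Hox* levels go against their labels (limma adjusted p = 8.48e-05) and 2.28 to 2.53 when any 1 library was left out. V2, low in *Nrxn3* as a whole, was thus low in rostral libraries (542 ± 166 CPM) and not in lumbar/sacral ones (2829 ± 456). Beside it the summed level of the visceral markers *Zeb2* and *Fbn2* in V2 was 1465 to 1731 CPM in lumbar/sacral and 1015 to 1421 in rostral libraries, and its part in the result was not tested. The sums of 3 microglial markers (3.58 to 48.0 and 0 to 48.7) and of 4 oligodendrocyte markers (40.0 to 62.4 and 28.8 to 53.5) overlapped.

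*Nxph1* differed by region in 3 clusters, and not in 1 direction. In V4, levels were 731, 508 and 1043 CPM in lumbar/sacral replicates 1 to 3 and 1322 to 2447 in the 6 rostral libraries (difference -1.15, SE 0.26, limma adjusted p = 0.031). In I6 they were 409, 257 and 347 CPM and 93.3 to 210 (1.15, SE 0.21, limma adjusted p = 0.022). In V6 they were 729 and 264 CPM, from only 13 and 10 nuclei and with lumbar/sacral replicate 3 left out for too few nuclei, and 79.2 to 215 in rostral libraries (1.84, SE 0.39, limma adjusted p = 0.023). In none of the 3 clusters did lumbar/sacral and rostral values overlap. This describes tests picked as called, and the share of all genes with such a gap is not given here. The 3 calls of *Nxph1* were less firm than that of *Nrxn3* in V2. Without the 2 libraries whose *Hox* levels go against their labels, V4 and I6 still passed (-1.29 and 1.07, limma adjusted p = 0.028 and 0.041), and V6 did not at a difference of 1.74 (limma adjusted p = 0.087). With 1 library left out, V4 lost its call for any of 6 libraries, V6 for any of 4 and I6 for any of 3. In V6 the difference was 1.12 without lumbar/sacral replicate 1 and 2.57 without lumbar/sacral replicate 2, and either fit leaves 1 lumbar/sacral library, assumed to vary like the rostral ones.

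Marker sums also differed between regions in these clusters, some of them on few counts. Their part in the differences of *Nxph1* was not tested. Summed *Zeb2* and *Fbn2* was 563 to 860 CPM in lumbar/sacral V4 and 942 to 1178 in rostral V4, and 1100 to 2301 and 423 to 668 in V6. In V6 the sum of 2 skeletal MN markers was 32.4 to 117 CPM in lumbar/sacral and 147 to 298 in rostral libraries, that of 4 interneuron markers was 0 in lumbar/sacral libraries and 11.7 to 28.4 in rostral ones, and that of 4 inhibitory neuron markers 44.0 to 64.8 and 9.33 to 25.0. In I6 the vesicular glutamate transporter gene *Slc17a6* was at 60.4 to 62.3 CPM in lumbar/sacral and 16.4 to 50.6 in rostral libraries, the inhibitory sum at 26.2 to 38.9 and 7.98 to 20.8, and the interneuron sum at 531 to 627 and 683 to 817. The visceral sum in I6 was also apart, at 23.4 to 42.6 CPM in lumbar/sacral and 1.69 to 22.5 in rostral libraries. The microglial and oligodendrocyte sums overlapped between regions in V4, V6 and I6.

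With the pool of mice as a block, 7 of the 66 passed, including the 4 above. The share of all genes that passed within clusters with this block is not given here. In the class fits the block raised the calls over all genes, from 428 to 737 in visceral MNs and from 5 to 44 in interneurons. The members called only with the block were *Nxph1* in V3 (1.06, blocked limma adjusted p = 0.015, 0.089 without the block), *Nxph1* in V7 (-0.80, 0.027 and 0.16) and *Nrxn3* in V5 (0.90, 0.0027 and 0.15). Without the 2 libraries whose *Hox* levels go against their labels and with no block, they were 0.87, -0.88 and 0.64 (limma adjusted p = 0.027, 0.11 and 0.11). *Nxph1* was at 1186 ± 248 CPM in lumbar/sacral V3 and 596 ± 258 in rostral V3, and at 1035 ± 73.9 and 1825 ± 351 in V7. *Nxph2* was tested in 6 clusters, with differences from -0.27 to 0.58, *Nrxn2* in 17, with -0.40 to 0.22, and *Nxph4* in 9, with -0.41 to 0.38. For these 3 genes 0 tests passed by limma, and 0 had an unadjusted p under 0.05.

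**Figure D5:**
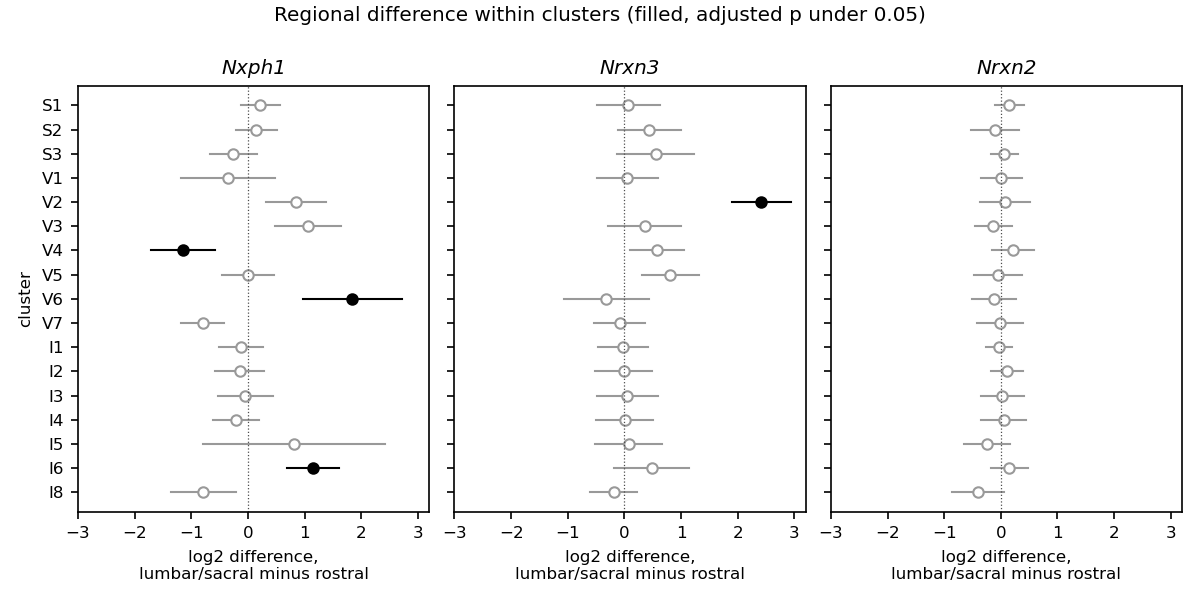
Log2 difference between lumbar/sacral and rostral libraries in each of 17 clusters for *Nxph1*, *Nrxn3* and *Nrxn2*, with 95% intervals; filled points passed an adjusted p of 0.05. *Nrxn3* differs by 2.42 in V2, *Nxph1* by -1.15 in V4, 1.84 in V6 and 1.15 in I6, and *Nrxn2* lies between -0.40 and 0.22.

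The wider neurexin pathway was described by lists of partner and splicing factor genes, all present in the matrix. Among 17 postsynaptic partners the median range over cluster means was 1.62 log2 units, with 1.12 over 12131 genes. The widest were *Adgrl2*, a latrophilin gene (672 ± 198 CPM in V10, 13.2 ± 9.79 in I3), and *Igsf21*, an immunoglobulin superfamily gene (222 ± 28.1 CPM in S1, 1.44 ± 1.56 in I3). Among secreted partners and carbonic anhydrase-related proteins, 9 of 14 reached 10 CPM in a cluster, with a median range of 2.44. The widest were *Fam19a2* (1705 ± 385 CPM in V7, 8.25 ± 10.2 in I8) and *Fam19a1* (576 ± 173 CPM in S1, 13.1 ± 16.0 in I7). Among cytosolic partners, with a median range of 1.30, the scaffold genes *Lin7a* (524 ± 161 CPM in V8, 25.9 ± 10.6 in I8) and *Apba1* (912 ± 86.7 CPM in I1, 114 ± 19.0 in I5) were widest. Of the 3 splicing factors that act on neurexin transcripts, *Khdrbs2* was highest in I8 and lowest in I5 (1919 ± 285 CPM in I8, 62.0 ± 24.7 in I5), and *Khdrbs3* was highest in V1 and lowest in I1 (652 ± 102 CPM in V1, 51.1 ± 14.0 in I1). I5, the lowest cluster for the members *Nxph1* and *Nrxn3*, was on these lists also the lowest for *Apba1*, *Apba2*, *Car10*, *Car11*, *Khdrbs2* and *Cbln4*, and the highest for *Clstn3* (130 ± 25.2 CPM), *C1ql3* (17.3 ± 10.6) and *Lin7c* (28.6 ± 13.0).

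Between regions and pools the lists gave calls in visceral MNs alone, and there in lumbar/sacral against rostral libraries, where 2.32% of genes passed upward and 1.94% downward by limma. *Grid1*, a delta receptor gene, rose (1177 ± 186 against 601 ± 166 CPM, 0.99 with SE 0.21, limma adjusted p = 0.031) and *Clstn2*, a calsyntenin gene, fell (314 ± 22.4 against 638 ± 148 CPM, -0.98 with SE 0.19, limma adjusted p = 0.024), among 17 postsynaptic partners. Among 7 cytosolic partners tested, *Apba2* fell (129 ± 5.84 against 188 ± 15.7 CPM, -0.53 with SE 0.09, limma adjusted p = 0.013). Among 3 splicing factors, *Khdrbs3* fell (178 ± 11.0 against 417 ± 90.6 CPM, -1.18 with SE 0.17, limma adjusted p = 0.0043). Of the 4 secreted partners tested, 0 passed. The median difference was 0.06 for the postsynaptic partners, -0.25 for the secreted partners, 0.13 for the cytosolic partners and 0.02 for the splicing factors, with 0.06 over all genes. The fit with equal weight of clusters was limited to V1 to V4 and V7. In it the 4 called differences kept their sign and none of them passed (0.52, -0.52, -0.28 and -0.75, limma adjusted p = 0.37, 0.49, 0.49 and 0.19). Without the 2 libraries whose *Hox* levels go against their labels all 4 passed (0.86, -1.13, -0.58 and -1.24, limma adjusted p = 0.015, 0.0094, 0.016 and 0.0012).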

How the data were processed

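Single nuclei of 9 libraries were sequenced. Cell Ranger 3.1.0 was run by the authors on whole transcripts including introns (GRCm38), and Seurat with SCTransform was then used for correction and clustering. The deposited values are whole-number scores, counts corrected to a common depth, not raw counts, and count models were therefore not used. Clusters and classes are the authors' annotation. Nuclei had been sorted through a singlet gate, and the authors removed outliers by gene number and mitochondrial share. A computational doublet step is not given in the sources used here, and none was run.

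Corrected counts were summed per library and class or cluster (at least 10 nuclei), scaled to CPM and filtered at 10 CPM in 3 sums. log2(CPM + 5) was fitted with limma 3.58.1 in R 4.3.3, with Benjamini-Hochberg adjustment over all genes tested, so folds of low genes are understated. For regions, p-values measure the spread between libraries of 3 pools of 4 mice. For the male against the female pool, they measure the scatter of libraries around their pool and region. They hold no spread between pools of 1 sex. Same-numbered libraries come from the same mice, and their deviations correlated at -0.22 to 0.92 (medians 0.65 to 0.75 in the 3 classes), with -0.82 to 0.61 between numbers (medians -0.45 to -0.40). Cervical replicate 3 was the exception, at -0.22 to -0.014 with the other 2 libraries of its mice and 0.32 to 0.46 with lumbar/sacral and thoracic replicate 1. Gene positions are those of GENCODE M21. On simulated data, 80.5 to 94.5% of 200 changed genes were recovered over 5 layouts, with 4.15 to 6.44% false calls. The planted changes were of 1 or 2 log2 units in either direction. Noise was independent between libraries, without shared mice, library sets or exchanged labels. These rates therefore do not cover smaller differences or the correlation between libraries seen here. Alternatives were median of ratios scaling, a pseudocount of 1 or 20, no filter, the replicate block, at least 30 nuclei, equal weight of clusters, thinning to 4600 counts and each library left out. Equal weight of clusters used only clusters with at least 10 nuclei in every library. The named genes were the members, the 5 genes most like each over clusters with the nearest of the lists, the 2 widest of each list, and list genes past the threshold. *Car10*, *Car11*, *Cbln4*, *Clstn3*, *C1ql3*, *Lin7c* and the markers named beside results were chosen after their values were seen. Some listed genes are not reported here. The members and lists were chosen with earlier results of these data known.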

Additional observations from a re-analysis of the deposited data

Results flagged for a closer look

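The lumbar/sacral difference of *Nxph1* was not the same in the 3 classes, by a test of the difference itself in paired sums of the same libraries. It was 0.56 log2 units larger in visceral MNs than in skeletal MNs (0.561929, SE 0.11, limma adjusted p = 0.0056) and 0.49 larger than in interneurons (0.48507, SE 0.072, limma adjusted p = 6.12e-04). These are not particular to *Nxph1*, since 7.34% and 10.4% of all genes passed the same tests. The share of V8 among visceral nuclei was 30.5 ± 4.14% in lumbar/sacral libraries, and the shares of other visceral clusters differed between regions too. V1, for 1, was at 5.19% in lumbar/sacral, 19.8% in cervical and 16.8% in thoracic libraries. The part of these shares in the differences was not tested. With equal weight for V1 to V4 and V7, a fit that leaves out V5, V6 and V8 to V10, the visceral difference was -0.13. Over 12 sets of 9 library levels, 0 held a library that stood apart by Dixon's criterion.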

How the results depend on the processing

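Over 1692 regional and pool differences refitted under the alternatives, 0 called values changed sign, 15 lost their call, 16 gained one, and 150 uncalled values changed sign. Members called in visceral MNs between lumbar/sacral and rostral libraries numbered 1 in place of 0 with a term for the 2 long-gene sets, added after seeing the data. Within clusters the 4 calls became 7 with the replicate block and 10 with the long-gene term, and 1 to 5 when 1 library was left out, with 1 without lumbar/sacral replicate 1 and 2 without cervical replicate 1, cervical replicate 3 or thoracic replicate 3. For these fits, and for those without the 2 libraries below, the share of all genes called within clusters is not given here. The replicate block changed no call of a member in the class comparisons, while over all genes the calls between lumbar/sacral and rostral libraries rose from 428 to 737 in visceral MNs, from 5 to 44 in interneurons and from 1 to 4 in skeletal MNs. *Nxph1* in V4 lost its call without filter on low values (limma adjusted p = 0.067) and without cervical replicate 1 or 3, lumbar/sacral replicate 1 or 2, or thoracic replicate 2 or 3 (0.050 to 0.20). *Nxph1* in V6 lost it without lumbar/sacral 1, thoracic 1, cervical 3 or thoracic 3 (0.051 to 0.058), where its difference of 1.84 was 1.12 without lumbar/sacral replicate 1 and 2.57 without lumbar/sacral replicate 2 (limma adjusted p = 8.79e-04), each with 1 lumbar/sacral library left and the spread taken from the rostral ones, and *Nxph1* in I6 without cervical 1, lumbar/sacral 1 or lumbar/sacral 3 (0.068 to 0.22). Without the 2 libraries whose *Hox* levels go against their labels 6 passed, since *Nxph1* in V2, V3 and I8 gained a call (limma adjusted p = 0.037, 0.027 and 0.042) and *Nxph1* in V6 lost it. The value of I8 was -0.998 in place of -0.786, and it was the same without thoracic replicate 2 alone. The cause of these changes was not tested, beyond fewer samples in the fits with a library left out. Counts over all genes moved more, from 428 called in visceral MNs between lumbar/sacral and rostral libraries to 96 with equal weight of clusters, 833 with the long-gene term and 160 to 267 without cervical replicate 1 or any 1 lumbar/sacral library, and in interneurons from 5 to 83 with the long-gene term and 13 without the 2 libraries. Between the pools 44 genes called in interneurons became 5 with the mixed pool left out, 27 with median of ratios scaling (17 of them higher in males, 33 of 44 otherwise) and 1048 without cervical replicate 3, where 525 and 667 passed in skeletal and visceral MNs in place of 9 and 48. Median of ratios scaling moved the median difference of all genes in skeletal MNs from 0.12 to -0.01 (lumbar/sacral) and from -0.13 to 0.01 (cervical against thoracic). Of 378 levels and shares, 42 moved by more than 1 SD. At an equal depth of 4600 counts, which leaves out 8.63% of nuclei and 44.1% of lumbar/sacral replicate 1, 57 in place of 67 of 126 pairs of member and cluster had a count in at least 50% of nuclei. Counts were few for *Nxph3* throughout and for *Nxph4* and *Nxph2* in MNs, and the part of depth in this was not tested.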
